A study of Mus musculus with 10 samples.

Results

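Human chromosome 21 (Hsa21), whose trisomy causes Down syndrome, is matched in the mouse by segments of 3 chromosomes, the largest on chromosome 16 and shorter ones on chromosomes 17 and 10. The genes described here are 48 homologues on the shorter segments, 31 on chromosome 10 from Prmt2 to Pdxk and 17 on chromosome 17 from Umodl1 to Rrp1b, chosen by name and position, and taken from 19938 genes tested. The rule that set the list leaves out by name Cbs and Ndufv3, which lie between Wdr4 and U2af1 on chromosome 17. It was set with earlier results of these data known. In GRCm38 the chromosome 10 genes span positions 76207226 to 78464948 and the chromosome 17 genes 30954648 to 32062865.

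The mutants were Dp5/Dp1 mice, compound transheterozygotes of the Dp(16Cyyr1-Clic6)5Yah and Dp(16Cbr1-Fam3b)1Rhr duplications, which carry 3 copies of the genes of both chromosome 16 intervals. The controls were littermates without either duplication (labelled WT). Both groups held 5 male mice aged 16 weeks, on a C57BL/6N background per the labels and C57BL/6J per the study's methods. RNA from both hippocampi of a mouse was hybridised to 1 Affymetrix Mouse Gene 1.0 ST array per mouse. The Dp5Yah duplication was made with loxP sites placed in App and Runx1, and the same control arrays were used for the lines with 1 duplication, Dp5Yah or Dp1Rhr, not analysed here. Neither duplication reaches chromosomes 10 or 17, so the 48 homologues had 2 copies in both groups.

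In trisomy 21 the human counterparts of these genes are present in an extra copy, whereas mouse models built on chromosome 16 leave them at the normal dose. Several act in cells or pathways often discussed in Down syndrome, among them the collagen VI chains, the calcium-binding protein S100B of astrocytes, the folate carrier SLC19A1 and the RNA-editing enzyme ADARB1. A change in their RNA in Dp5/Dp1 mice would therefore have to come about without a change in their own copy number, and the comparison with littermates asks how large such changes were.

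All levels below are RMA log2 values, in which 1 unit is a factor of 2, all differences are Dp5/Dp1 minus control on that scale with a standard error (SE), and levels are means ± SD (n = 5). A gene is called where the Benjamini-Hochberg adjusted p of limma over the 19938 genes is under 0.05. Probe sets differ in brightness for reasons other than RNA abundance, so levels are compared between arrays, not between genes. The 8 hippocampal neuron markers were all measured above the dimmest 40% of genes, and their mean lay between 10.36 and 10.48 on every array. The mean of 9 choroid plexus markers varied far more, from 7.01 to 9.40 in controls and from 7.10 to 8.99 in Dp5/Dp1, and the mean of 8 medial habenula markers was 8.34 in Dp5/Dp1 replicate 2 and 7.70 in replicate 5 against 6.83 to 7.36 on the other arrays. None of the markers in the 10 lists was called. Because whole tissue was measured, fewer cells of a type and less RNA per cell cannot be told apart. Titles of the mutant arrays name Dp5Yah and give Dp5/Dp1 in brackets. The genes of both intervals were therefore averaged on each array. The Dp5Yah mean was 7.28 to 7.34 in the mutants and 7.09 to 7.17 in controls, and the Dp1Rhr mean was 8.21 to 8.26 against 8.03 to 8.05.

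None of the 48 homologues was called in either direction, beside 0.206% of all genes called (41 of 19938, 0.201% higher and 0.00502% lower). Cbs, which the rule leaves out, was the 1 gene called lower and lies inside the chromosome 17 segment, so the count holds for the 48 named genes and not for the whole segment. Its call was lost in 13 of the 20 alternative limma fits. An unadjusted p under 0.05 was reached by 3 of the 48, or 6.25%, which is close to the 6.06% of all genes (3.39% higher and 2.67% lower). These were Adarb1 and Rrp1b, both with a lower mean in Dp5/Dp1, and Wdr4, with a higher mean. Wdr4 was also the 1 homologue whose 5 Dp5/Dp1 arrays did not overlap the 5 control arrays, a pattern shown by 1.08% of all genes (0.762% higher and 0.321% lower). By the study's rank method, FCROS, 2 of the 48 passed, S100b higher and Rrp1b lower, beside 5.06% of all genes. Means were higher in Dp5/Dp1 for 20 homologues and lower for 28, and over all genes higher for 10272 and lower for 9666. The median difference was -0.0082, against 0.0019 over all genes. On chromosome 10 the median was -0.0071, with 14 higher and 17 lower means between -0.11 (Ube2g2) and 0.13 (S100b). On chromosome 17 it was -0.014, with 6 higher and 11 lower means between -0.14 (Rrp1b) and 0.088 (Wdr4). The median absolute difference, 0.034, was that of all genes, 0.034, and the median SE was 0.044 against 0.043.

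**Figure D1:**
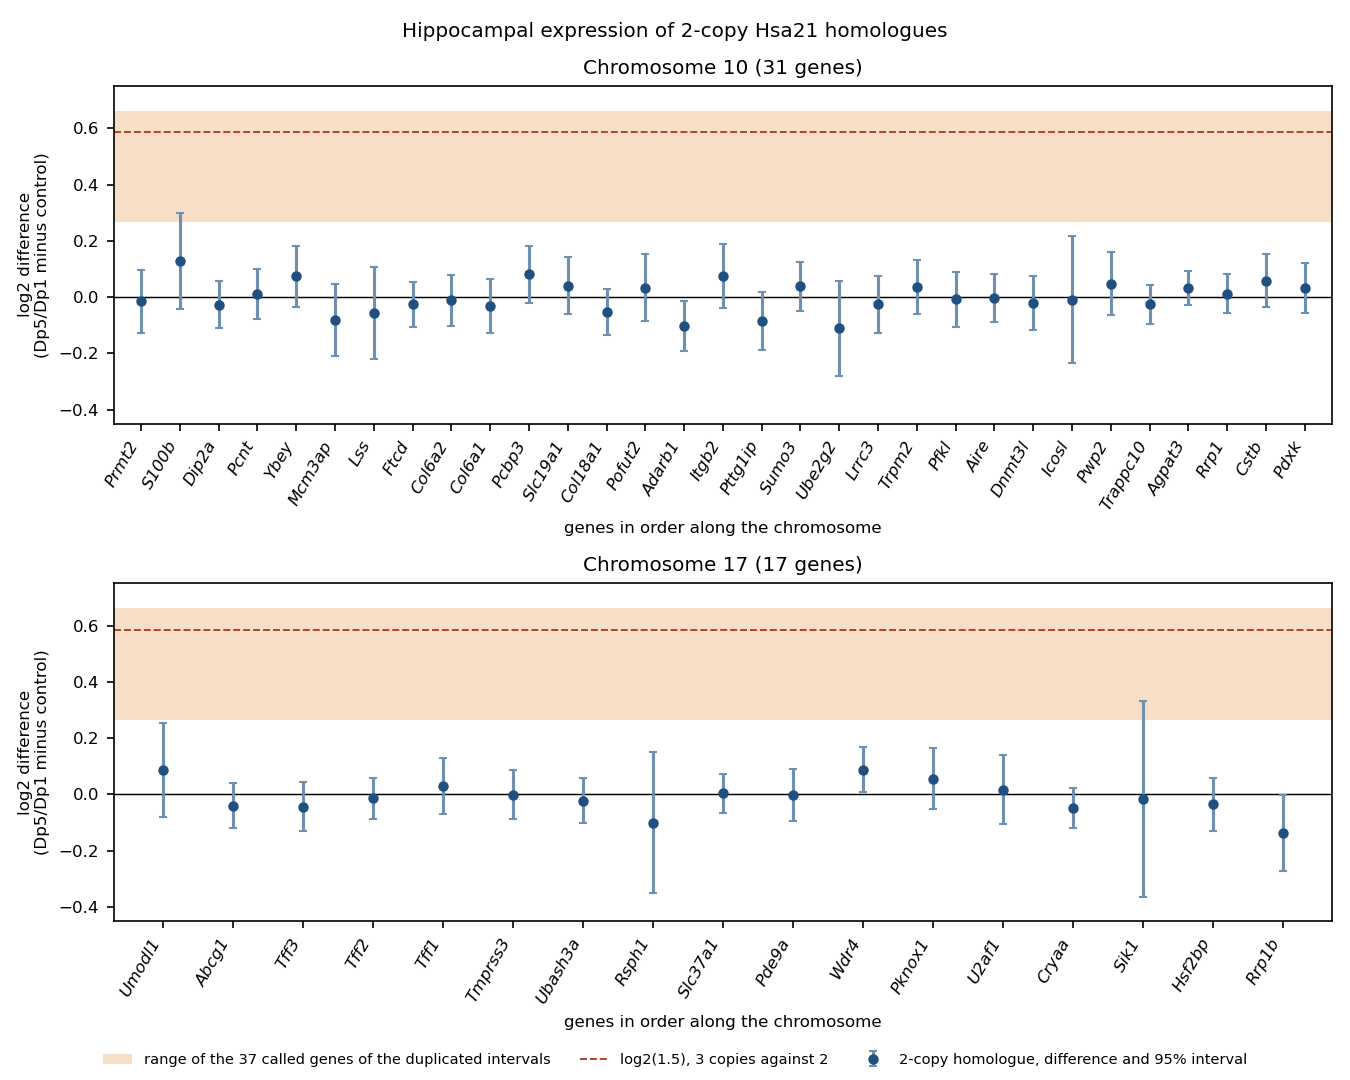
Log2 differences (Dp5/Dp1 minus control, y axis) with 95% confidence intervals for the 31 homologues of chromosome 10 (top) and the 17 of chromosome 17 (bottom), in gene order along the chromosome (x axis). The shaded band runs from 0.27 to 0.66, the range of the 37 called genes of the duplicated intervals, and the dashed line marks log2(1.5). The points lie between -0.14 and 0.13, and the intervals of S100b and Sik1 reach into the band.

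A p that misses the threshold does not show that the levels were equal, so the 95% confidence intervals give the changes that the 10 arrays allow. For all 48 homologues the interval ended below 0.585, the log2 of a 1.5-fold increase, and began above -0.585. The same was true of most genes, with 19882 of the 19938 tested ending below 0.585 and 19841 beginning above -0.585. Among the homologues the highest upper end was 0.33 and the lowest lower end -0.36, both for Sik1, which varied most between mice. The intervals of 45 homologues held 0, and those of Adarb1, Wdr4 and Rrp1b did not. As a reference, 113 genes lay inside the duplicated intervals by position, 82 in Dp5Yah and 31 in Dp1Rhr, and 37 of them were called, all higher. The differences of these 37 ran from 0.27 to 0.66 with a median of 0.40. The upper ends of all 48 homologues lay below that median, and those of 46 lay below the lowest of the 37. These 37 were picked by the test. Over all 113 the median was 0.10, and the upper ends of 20 homologues lay above it and those of 28 below. Of these 113 genes, 54 were among the dimmest 40% of genes, so 0.10 is a median of signal that includes many dim probe sets. RMA draws differences of dim probe sets towards 0. Of the homologues, 12 were among the dimmest 40% of genes, 9 of them on chromosome 17, and for these the intervals limit the change in signal rather than the change in RNA.

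The mean over the 31 chromosome 10 homologues was 8.61, 8.63, 8.64, 8.62 and 8.60 in control replicates 1 to 5 and 8.64, 8.59, 8.63, 8.62 and 8.62 in Dp5/Dp1 replicates 1 to 5. Over the 17 chromosome 17 homologues it was 7.15, 7.16, 7.16, 7.15 and 7.17 in controls and 7.13, 7.17, 7.15, 7.11 and 7.17 in Dp5/Dp1. The groups overlapped on both chromosomes, within 8.59 to 8.64 and within 7.11 to 7.17. The 113 interval genes, averaged in the same way, lay between 7.35 and 7.41 in controls and between 7.54 and 7.59 in Dp5/Dp1, with no overlap. No test was made on these means.

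**Figure D2:**
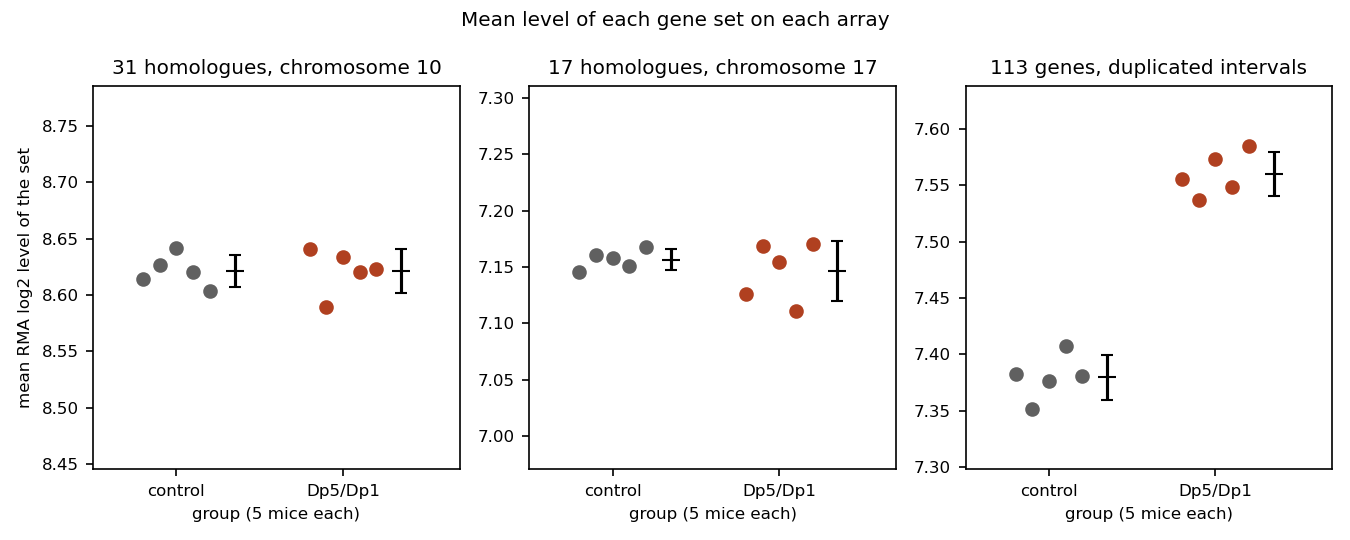
Mean RMA log2 level (y axis) of the 31 homologues of chromosome 10, the 17 of chromosome 17 and the 113 genes of the duplicated intervals on each array of the control and Dp5/Dp1 groups (x axis), with the group mean and SD beside the points. Each panel spans the same range of log2 units, and the groups are apart in the right panel, at 7.35 to 7.41 and 7.54 to 7.59.

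**Figure D3:**
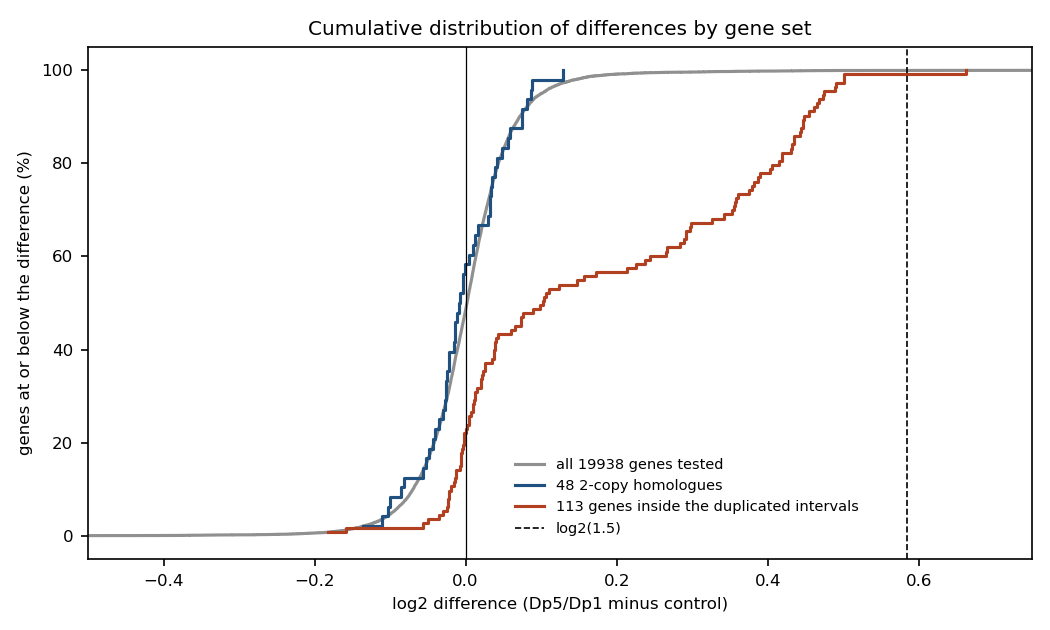
Cumulative share of genes (y axis, percent) at or below each log2 difference (Dp5/Dp1 minus control, x axis) for the 48 homologues, the 113 genes inside the duplicated intervals and all 19938 genes tested. The median is -0.0082 for the homologues, 0.10 for the interval genes and 0.0019 for all genes, and the dashed line marks log2(1.5).

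Adarb1 encodes the adenosine deaminase ADAR2, which edits the glutamate receptor transcript Gria2. It measured 10.28, 10.21, 10.13, 10.24 and 10.13 in control replicates 1 to 5 and 10.03, 10.17, 10.07, 10.15 and 10.07 in Dp5/Dp1 replicates 1 to 5. The highest 3 arrays were controls and the lowest 3 were mutants, with an overlap between 10.13 and 10.17. The difference was -0.10 ± 0.040 (95% interval -0.19 to -0.015, limma adjusted p = 0.806). Adarb1 reached an unadjusted p under 0.05 in 14 of the 20 alternative limma fits. The other genes listed for editing were not called. Adar, which encodes the second catalytically active deaminase, differed by 0.027 ± 0.033, and Gria2 by -0.049 ± 0.042.

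Wdr4 encodes the partner subunit of the METTL1 methyltransferase, a complex that places 7-methylguanosine on transfer RNA. The controls measured 7.18, 7.35, 7.33, 7.24 and 7.35 and the mutants 7.37, 7.38, 7.36, 7.36 and 7.41. All 5 mutants lay above all 5 controls, with 7.36 against 7.35 at the closest pair, and the mutants spread far less (SD 0.022) than the controls (SD 0.074). The difference was 0.088 ± 0.037 (95% interval 0.0080 to 0.17, limma adjusted p = 0.808). Mettl1 itself, on another part of chromosome 10, had the lowest p of the 80 partner genes and paralogues measured. It lay at 7.58, 7.78, 7.89, 7.67 and 7.62 in controls and 8.04, 7.90, 8.03, 7.75 and 7.93 in mutants. Dp5/Dp1 replicate 4 fell inside the control range and the 4 others above it. Its difference was 0.22 ± 0.067 (limma adjusted p = 0.656), so neither subunit was called. Without the mutant replicates 2 and 5, which had the most habenula signal, Wdr4 differed by 0.074 (limma adjusted p = 0.760), and with choroid plexus and habenula scores as covariates by 0.064 (0.776). Its unadjusted p was under 0.05 in 11 of the 20 alternative limma fits. After renewed quantile normalization the groups overlapped for every homologue, Wdr4 included.

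Rrp1b encodes a nucleolar protein of ribosome assembly that also acts in transcription and splicing. Its controls measured 6.80, 6.55, 6.71, 6.64 and 6.78 and its mutants 6.46, 6.64, 6.42, 6.68 and 6.60. The lowest 2 arrays, Dp5/Dp1 replicates 3 and 1, lay below every control, whereas the other mutants lay inside the control range. The difference was -0.14 ± 0.062 (95% interval -0.27 to -0.000080, limma adjusted p = 0.824). Rrp1b reached an unadjusted p under 0.05 in 9 of the 19 alternative limma fits that included it. Its probe set was among the dimmest 40% of genes. Rrp1, the paralogue on chromosome 10, differed by 0.012 ± 0.032.

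The start regions of the homologues were read from RefSeq windows on GRCm38.p6, 250 bases before to 50 after a start. They were found for 35 of the 48, and the most upstream window given for a gene was used. Its start lay within 100 bases of the upstream end of the annotated gene for 26 of the 35, among them the 3 printed here, and further inside the gene for the other 9, Wdr4 by 7498 bases. These windows held 3 to 47 CpG dinucleotides with a median of 19, against a median of 15 over the 15563 tested genes with a window. At least 10 CpG were present in 26 of the 35 windows (74.3%, against 61.8% of all). A GC box, written GGGCGG on either strand and itself holding a CpG, was found in 22 (62.9%, against 49.9%). The cyclic AMP response element TGACGTCA was found in none of the 35 and in 2.48% of all windows. The homologues whose probe sets lay above the dimmest 40% had at least 10 CpG in 23 of 27 windows (83.6% over all such genes), and the dim ones in 3 of 8 (27.0% over all dim genes). The windows of Adarb1, S100b and Rrp1b are shown because they bear the 2 lowest-p lower means and the largest higher mean, and because they span the range from a CpG-rich to a CpG-poor start. Capitals mark CpG, and each runs 5′ to 3′ on the gene's strand.
Adarb1 (chr10:77418224-77418523, minus strand, 46 CpG): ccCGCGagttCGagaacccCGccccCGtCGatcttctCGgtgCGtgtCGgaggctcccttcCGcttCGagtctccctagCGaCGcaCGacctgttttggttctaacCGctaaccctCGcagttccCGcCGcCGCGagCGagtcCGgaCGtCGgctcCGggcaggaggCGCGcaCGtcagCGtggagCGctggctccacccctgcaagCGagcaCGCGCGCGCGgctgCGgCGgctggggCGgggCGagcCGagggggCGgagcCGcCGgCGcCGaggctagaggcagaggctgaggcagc
S100b (chr10:76253586-76253885, plus strand, 3 CpG): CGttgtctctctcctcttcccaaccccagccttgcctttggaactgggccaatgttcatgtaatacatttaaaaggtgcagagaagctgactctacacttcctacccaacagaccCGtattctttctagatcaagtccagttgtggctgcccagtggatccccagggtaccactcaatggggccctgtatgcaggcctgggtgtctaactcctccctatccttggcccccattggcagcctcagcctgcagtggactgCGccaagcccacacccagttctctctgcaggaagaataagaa
Rrp1b (chr17:32035912-32036211, plus strand, 10 CpG): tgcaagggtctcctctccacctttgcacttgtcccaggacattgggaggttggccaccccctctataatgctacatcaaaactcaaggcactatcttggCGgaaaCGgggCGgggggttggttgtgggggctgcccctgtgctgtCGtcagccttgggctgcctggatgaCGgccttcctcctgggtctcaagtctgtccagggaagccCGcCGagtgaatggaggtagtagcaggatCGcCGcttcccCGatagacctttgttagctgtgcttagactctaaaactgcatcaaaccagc

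The other large differences on chromosome 10 did not pass the test at an unadjusted p of 0.05. S100b had the highest mean difference of all 48, 0.13 ± 0.078 (95% interval -0.042 to 0.30, limma adjusted p = 0.844). It measured 9.34, 9.42, 9.60, 9.48 and 9.49 in controls and 9.77, 9.33, 9.61, 9.55 and 9.73 in mutants. Replicates 1, 5 and 3 of the mutants were the highest of all arrays, while replicate 2 was the lowest of all. Without that mouse, which had the highest habenula signal, the difference was 0.20 (limma adjusted p = 0.508). Without mutant replicate 1, the highest array, it was 0.085. These were the highest and lowest differences when 1 array was left out. S100b is made by astrocytes and by cells of the oligodendrocyte lineage. The mean of 5 oligodendrocyte markers was highest in the same mutant replicate 1 (11.84, against 11.59 to 11.73 on the others), and the mean of 6 astrocyte markers ran from 10.89 to 11.02 in controls and from 10.89 to 10.98 in mutants; the part of these cells in the S100b values was not tested. Of 5 related S100 genes none was called, and the 2 with the lowest p were S100a16 at 0.092 ± 0.047 and S100a13 at 0.069 ± 0.051.

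Pcbp3 encodes a poly(C)-binding protein that attaches to messenger RNA. Its controls measured 9.62, 9.76, 9.74, 9.65 and 9.65 and its mutants 9.90, 9.75, 9.77, 9.73 and 9.66. Mutant replicates 1 and 3 were the highest arrays and the other 3 lay within the control range, for a difference of 0.082 ± 0.046 (limma adjusted p = 0.838). Itgb2 encodes the beta chain shared by the leukocyte integrins. It measured 7.08, 7.03, 7.06, 7.17 and 7.09 in controls and 7.25, 7.05, 7.28, 7.04 and 7.19 in mutants. Mutant replicates 3, 1 and 5 exceeded every control, replicates 2 and 4 did not, and the difference was 0.075 ± 0.052 (limma adjusted p = 0.863). The mean of 7 microglia markers ran from 8.85 to 8.96 in controls and from 8.78 to 9.02 in mutants, where it was also highest in replicates 5, 1 and 3, and its part in the Itgb2 values was not tested.

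At the other end, Ube2g2 encodes an E2 enzyme that marks misfolded proteins of the endoplasmic reticulum for breakdown. Its controls measured 9.83, 9.74, 10.12, 10.06 and 9.90 and its mutants 9.66, 9.73, 9.91, 9.84 and 9.96. Control replicates 3 and 4 were the highest and mutant replicate 1 the lowest, and the difference of -0.11 ± 0.077 (limma adjusted p = 0.862) was smaller than the control SD of 0.16. Pttg1ip encodes a membrane protein that binds the securin PTTG1. It lay at 9.67, 9.57, 9.76, 9.76 and 9.66 in controls and 9.64, 9.49, 9.62, 9.56 and 9.68 in mutants. Most of the mutants lay within the control range and replicates 2 and 4 lay below it, for a difference of -0.085 ± 0.047 (limma adjusted p = 0.832).

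On chromosome 17, Umodl1, a uromodulin-like gene, and Pknox1, which encodes a TALE homeobox factor that pairs with PBX proteins, followed Wdr4 in size. Umodl1 measured 6.64, 6.66, 6.46, 6.32 and 6.33 in controls and 6.57, 6.74, 6.51, 6.43 and 6.58 in mutants. The highest array was mutant replicate 2, the lowest were control replicates 4 and 5, and the difference was 0.086 ± 0.077 (limma adjusted p = 0.888). With choroid plexus and habenula scores as covariates it was 0.0088. Pknox1 lay at 6.68, 6.90, 6.89, 6.83 and 6.82 in controls and 6.90, 6.77, 6.84, 6.97 and 6.92 in mutants. Control replicate 1 stood below the other arrays, and the difference of 0.056 ± 0.049 (limma adjusted p = 0.887) became 0.021 without it.

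Below Rrp1b in size came Rsph1, which encodes a radial spoke protein of motile cilia, and Cryaa, the lens alpha-crystallin. Rsph1 measured 6.84, 6.44, 6.62, 6.88 and 6.75 in controls and 6.48, 6.82, 6.63, 6.26 and 6.84 in mutants. Its probe set was dim, and levels ranged over 0.62 without a split by group. The difference of -0.10 ± 0.11 (limma adjusted p = 0.911) was -0.014 without mutant replicate 4, the lowest array, and -0.17 without control replicate 2. It was -0.25 without the mutant replicates 2 and 5 (limma adjusted p = 0.720), which were the highest mutants for Rsph1, so that leaving them out lowers the mutant mean. The sign was kept in all 19 alternative fits that included the gene, but these fits share most of their arrays. The mean of 7 markers of ependyma and motile cilia, 5 of them among the dimmest 40% of genes, ran from 6.16 to 6.40 in controls and from 6.09 to 6.44 in mutants. Like Rsph1, this mean was lowest in mutant replicate 4, highest among the mutants in replicates 5 and 2, and highest among the controls in replicate 4. Its part in the Rsph1 values was not tested. Cryaa lay at 6.63, 6.59, 6.61, 6.71 and 6.61 in controls and 6.61, 6.54, 6.64, 6.58 and 6.56 in mutants. These groups overlapped, and the difference was -0.049 ± 0.032 (limma adjusted p = 0.855) on a dim probe set.

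**Figure D4:**
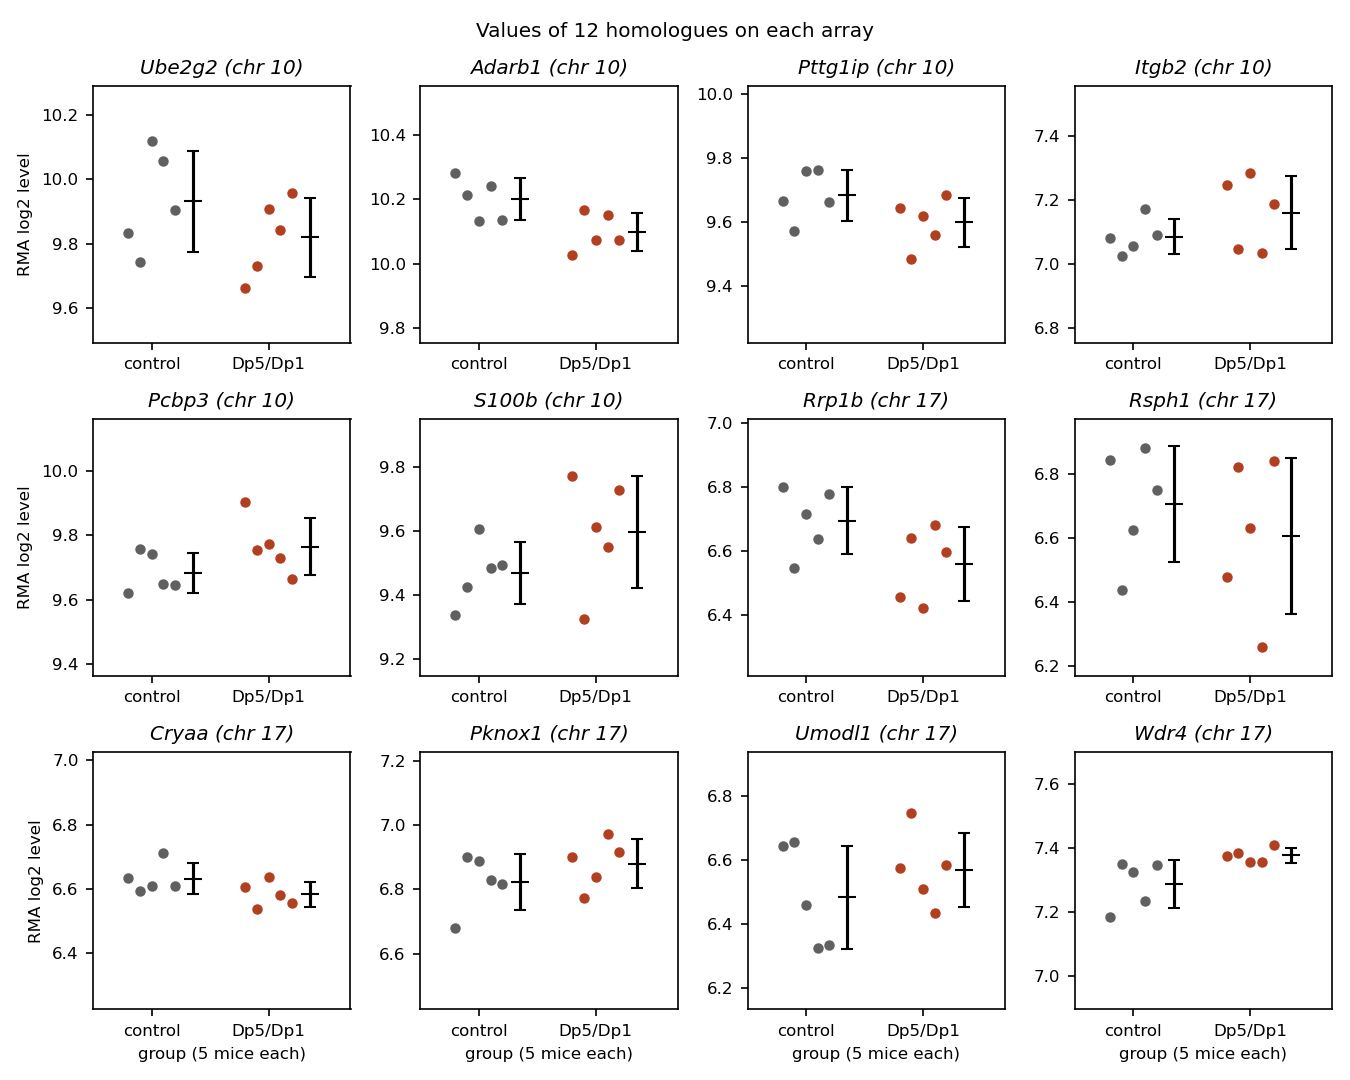
RMA log2 levels (y axis) of 12 homologues on each of the 5 control and 5 Dp5/Dp1 arrays (x axis), with the group mean and SD beside the points. The 12 have an unadjusted p under 0.05 or the 3 highest or 3 lowest differences of their chromosome; all panels span the same range of log2 units, and the groups are apart for Wdr4.

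The 3 collagen genes all had lower means without passing the test. Col6a1 and Col6a2 encode chains of the collagen VI microfibrils, and Col18a1 the core of a basement membrane collagen. Differences were -0.030 ± 0.044 for Col6a1, -0.011 ± 0.041 for Col6a2 and -0.053 ± 0.037 for Col18a1. Of 6 further collagen genes, 3 had higher and 3 lower means and none was called. Col6a3, the third chain of the common collagen VI trimer, had the lowest p of these, at -0.074 ± 0.038 (limma adjusted p = 0.832), and Col4a2, a basement membrane collagen, differed by 0.038 ± 0.038. The mean of 8 markers of leptomeninges and fibroblasts, cells that make collagen, was 7.80 to 8.31 in controls and 7.85 to 8.21 in mutants.

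The 8 genes of metabolism and vitamin use were divided evenly, 4 with higher and 4 with lower means, and no difference exceeded 0.056 in size. Agpat3, an acyltransferase of phosphatidic acid synthesis, had the narrowest spread of the 48, with 11.20 ± 0.018 in controls and 11.23 ± 0.037 in mutants and a difference of 0.033 ± 0.028. Among 4 related acyltransferases Agpat2 differed by -0.10 ± 0.063 and Agpat5 by 0.052 ± 0.050. Pfkl, the liver-type phosphofructokinase of glycolysis, differed by -0.0071 ± 0.045, and Pdxk, the kinase that makes active vitamin B6, by 0.032 ± 0.041. Of the 2 other phosphofructokinases, Pfkp differed by 0.084 ± 0.037 (limma adjusted p = 0.816) and Pfkm by 0.040 ± 0.037. Slc19a1, the reduced folate carrier, differed by 0.041 ± 0.046, and a second, dimmer probe set of the gene by 0.0067 ± 0.073. Ftcd, an enzyme of histidine and folate breakdown with a dim probe set, differed by -0.026 ± 0.036, and Slc37a1, a sugar-phosphate transporter of the endoplasmic reticulum, by 0.0039 ± 0.032. The 3 measured genes of folate transport and use showed none called, the 2 with the lowest p being Shmt1 (0.053 ± 0.035) and Slc46a1 (-0.030 ± 0.052).

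Of the sterol genes, Lss, which closes the sterol ring as lanosterol synthase, differed by -0.056 ± 0.075, and Abcg1, which exports cholesterol, by -0.041 ± 0.036. Of 6 other genes of sterol synthesis and export, 5 had a higher mean in Dp5/Dp1, and none was called. An unadjusted p under 0.05 was reached by 2 of them (33.3%, beside 6.06% of all genes). Over all genes the mean was higher for 10272 of 19938. The list was chosen with earlier results known and was not tested as a set. Fdft1, squalene synthase, differed by 0.18 ± 0.067 (limma adjusted p = 0.806), and Idi1, which makes an isoprenoid precursor, by 0.22 ± 0.098 (limma adjusted p = 0.823). Whether Lss and these genes differed from each other was not tested.

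Among the 9 genes of RNA processing and ribosome assembly, 6 had higher and 3 lower means. The group holds all 3 homologues with an unadjusted p under 0.05, 2 of them lower. That is 33.3% of the group, beside 6.25% of the 48 homologues and 6.06% of all genes. The groups were drawn up with earlier results known, and the group was not tested as a set. U2af1, the small subunit of the splicing factor that reads the 3′ splice site, differed by 0.017 ± 0.056, and its second probe set by 0.017 ± 0.053. Mcm3ap, a factor of messenger RNA export, differed by -0.081 ± 0.059. Ybey, a ribonuclease of ribosomal RNA with a dim probe set, differed by 0.074 ± 0.049, and its annotated span overlaps that of Mcm3ap. Pwp2, a subunit of the small-subunit processome, differed by 0.049 ± 0.052. None of 6 further genes of ribosome assembly was called, and the 2 with the lowest p were Nop58 (0.064 ± 0.068) and Wdr43 (-0.068 ± 0.078). Of 5 partners of U2AF and the poly(C)-binding proteins, 4 had lower means, with Pcbp2 at -0.068 ± 0.033 (limma adjusted p = 0.824) and Pcbp1 at -0.028 ± 0.025.

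Protein modification and breakdown held 4 genes, 3 with higher means. Sumo3, a ubiquitin-like modifier, differed by 0.039 ± 0.040, its near twin Sumo2 by -0.0069 ± 0.027 and Sae1, a subunit of the SUMO-activating enzyme, by -0.024 ± 0.044. Pofut2, which adds fucose to thrombospondin repeats, differed by 0.034 ± 0.055. Cstb, the cysteine protease inhibitor whose loss causes progressive myoclonus epilepsy, differed by 0.058 ± 0.043 with controls at 9.49 ± 0.045. The 4 related cystatin and cathepsin genes all had higher means and none was called, with Cst3 at 0.039 ± 0.034 and Ctsh at 0.086 ± 0.091. Of the partners of Ube2g2, Ube2g1 differed by -0.035 ± 0.034 and the ubiquitin ligase Syvn1 by -0.054 ± 0.057.

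The 4 genes of transcription and chromatin differed by at most 0.056. Prmt2, an arginine methyltransferase and receptor coactivator, differed by -0.015 ± 0.051. Aire, which drives display of tissue antigens in the thymus, differed by -0.0039 ± 0.039, and Dnmt3l, a germ line cofactor of DNA methylation with a dim probe set, by -0.021 ± 0.044. Beside Mettl1, the 7 measured methyltransferase partners included Prmt8 with an unadjusted p under 0.05 (-0.075 ± 0.034, limma adjusted p = 0.822). The paralogues of Pknox1 gave 0.054 ± 0.031 for Meis1 and 0.031 ± 0.088 for Pknox2.

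Trpm2, a calcium-permeable channel gated by ADP-ribose, differed by 0.035 ± 0.044, and Pde9a, a phosphodiesterase that degrades cyclic GMP, by -0.0031 ± 0.042. The 3 other TRPM genes all had lower means, led by Trpm7 at -0.090 ± 0.054 and Trpm3 at -0.14 ± 0.16. The 4 other phosphodiesterases had lower means too, with Pde10a at -0.11 ± 0.049 (limma adjusted p = 0.824) and Pde2a at -0.020 ± 0.031. None was called.

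Sik1 encodes a salt-inducible kinase that restrains CREB coactivators and whose own transcription follows neuronal activity. It had the widest spread of the 48, with a within-group SD of 0.30 at the 99.2nd percentile of all genes. The controls measured 8.51, 9.09, 9.33, 8.84 and 8.68 and the mutants 8.68, 9.17, 9.15, 8.80 and 8.58. Control replicates 3 and 1 were the highest and lowest of the 10 arrays, so the whole range of 0.83 lay within 1 group. The difference was -0.016 ± 0.16 (95% interval -0.36 to 0.33, limma adjusted p = 0.991). The activity-regulated genes Fos, Arc, Npas4 and Nr4a1, picked after the values were seen, were likewise highest in control replicate 3, at 8.02, 10.96, 9.58 and 10.78, and stood at 6.86, 9.58, 8.31 and 9.60 in control replicate 1. Their lowest array was mutant replicate 5, at 6.52, 9.33, 7.38 and 9.29, and their group differences were 0.016 ± 0.26, -0.065 ± 0.26, -0.22 ± 0.34 and -0.011 ± 0.25. The part of activity in the Sik1 values was not tested. With choroid plexus and habenula scores as covariates the Sik1 difference was -0.19 (limma adjusted p = 0.802). Of 5 further salt-inducible kinases and CREB coactivators all had lower means and none was called, with Sik2 at -0.081 ± 0.040 (limma adjusted p = 0.827) and Sik3 at -0.057 ± 0.037.

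**Figure D5:**
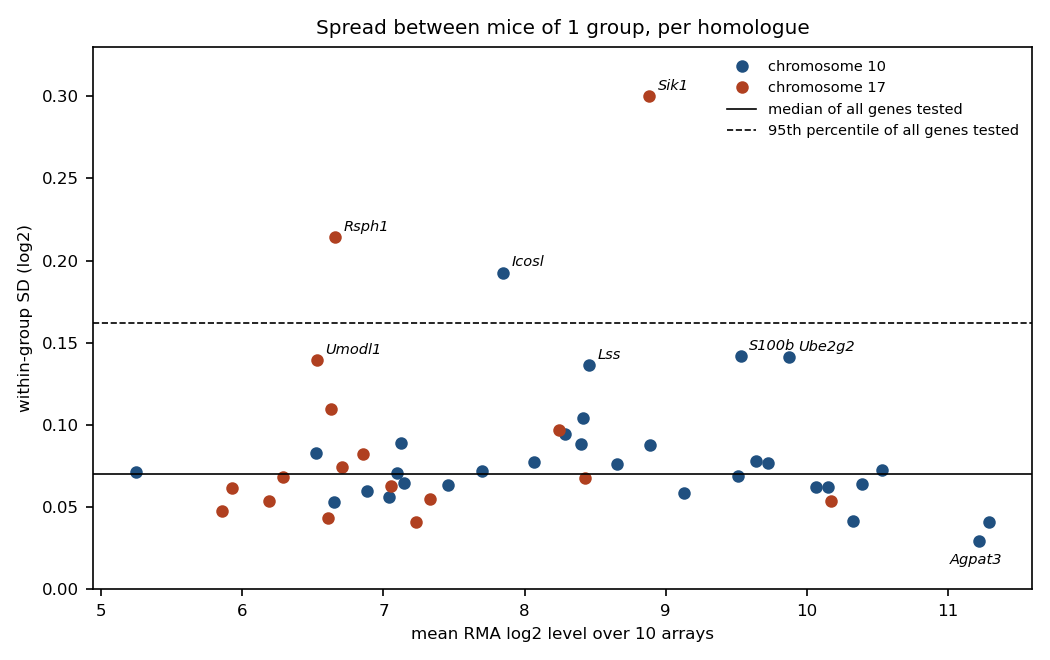
Within-group SD of the log2 values (y axis) against the mean RMA log2 level over 10 arrays (x axis) for the 48 homologues, coloured by chromosome. The solid line is the median over all genes, 0.070, and the dashed line the 95th percentile, 0.16. Sik1 (0.30), Rsph1 (0.21) and Icosl (0.19) lie above the dashed line and Agpat3 (0.029) is lowest.

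The spread between mice of a group was 0.071 at the median of the homologues and 0.070 over all genes, and 3 homologues exceeded the 95th percentile. Beside Sik1 and Rsph1 the other was Icosl, the ligand of the T-cell costimulator ICOS, which ranged over 0.49 from mutant replicate 2 to mutant replicate 1 and differed by -0.0093 ± 0.10. Ubash3a, a suppressor of T-cell receptor signalling, differed by -0.021 ± 0.036 on a dim probe set. Of 5 partners of these immune genes, 4 had higher means and none was called, with Icos at 0.11 ± 0.055 and the integrin chain Itgal at 0.093 ± 0.045.

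In the group of centrosome, trafficking and membrane genes 5 of 6 means were lower. Pcnt, the pericentrin scaffold of the centrosome, differed by 0.010 ± 0.040, and its partner Akap9 by -0.11 ± 0.056. Trappc10, a subunit of the TRAPP II complex at the Golgi, differed by -0.026 ± 0.032, and Trappc12 by 0.071 ± 0.037. Dip2a differed by -0.027 ± 0.038, and Lrrc3, a leucine-rich repeat membrane protein, by -0.025 ± 0.047.

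The epithelial and germ line genes of chromosome 17 had low levels. Of 7 genes, 6 were among the dimmest 40%, and Tff3 lay just above them. The trefoil factors, secreted peptides of mucosae, differed by 0.029 ± 0.045 (Tff1), -0.014 ± 0.034 (Tff2) and -0.043 ± 0.040 (Tff3). Tmprss3, a serine protease of the inner ear, differed by -0.00041 ± 0.040, and Hsf2bp, a meiotic partner of BRCA2, by -0.035 ± 0.043.

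Over all 80 measured partners and paralogues, 40 had higher and 40 lower means, none was called and 5 (6.25%) had an unadjusted p under 0.05, beside 6.06% of all genes. Cbs and Ndufv3, the homologues left out by name, lie inside the chromosome 17 segment. Cbs, the first enzyme of transsulfuration, fell by 0.40 (SE 0.069, limma adjusted p = 0.0412). Its difference lay between -0.45 and -0.35 in the 20 alternative limma fits, with adjusted p from 0.0225 to 0.198. Among the fits that lost the call were those with the choroid plexus covariate (0.0733), with choroid plexus and habenula covariates (0.182) and without Dp5/Dp1 replicates 2 and 5 (0.0548), and 9 of the 10 fits that left out 1 array, all but the one without Dp5/Dp1 replicate 2. Its controls measured 9.09, 9.07, 9.06, 9.19 and 9.17 and its mutants 8.57, 8.89, 8.81, 8.77 and 8.51, with no overlap. Pknox1 and U2af1, the nearest homologues described here on either side of Cbs, differed by 0.056 and 0.017. Ndufv3, a subunit of respiratory complex I, differed by 0.11 ± 0.059 (limma adjusted p = 0.832).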

How the data were processed

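The authors normalized the 10 arrays by RMA and deposited log2 expression values. RMA, limma and mm10 are named in the submitters' processing notes, and versions are not given in the sources used here. Of 35556 probe sets, 21789 had 1 gene symbol, and each of 19938 genes was read from its brightest probe set by the mean of the 10 arrays. Positions and start windows came from RefSeq on GRCm38. Groups came from the condition label. limma 3.58.1 in R 4.3.3 compared 5 Dp5/Dp1 with 5 control arrays by two-sided moderated tests (lmFit, then eBayes) without covariates, adjusted by Benjamini-Hochberg over all genes, with 95% intervals from the same fit. Array medians lay between 6.73 and 6.80, and the number of arrays limits the precision. Values on every array are given for homologues with an unadjusted p under 0.05, with groups that do not overlap, or with the 3 highest or lowest differences of their chromosome, and for Sik1, picked for its spread after the values were seen. Of each partner list, at most the 2 genes with the lowest p are named. The homologues and all lists were chosen with earlier results of these data known. The alternatives were other normalization, centring, probe set rules, variance models, array weights, marker scores as covariates, the replicate number as a block, arrays left out, an adjusted p under 0.1, and FCROS, the rank method of the study, rewritten from its description. Scripts were tested on simulated data.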

Additional observations from a re-analysis of the deposited data

Results flagged for a closer look

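In 6 of the 96 groups of 5 arrays (48 homologues in 2 groups), 1 array stood further from the rest than Dixon's 95% limit. Chance flags about 1 in 20 such groups, or about 4.8 here. Mcm3ap was at 8.14 in Dp5/Dp1 replicate 1 against 8.38 to 8.47 in the other mutants. Lss was at 8.70 in control replicate 2 against 8.39 to 8.46, and Rrp1 in the same mouse was at 11.23 against 11.29 to 11.31. Col6a2 was at 7.27 in Dp5/Dp1 replicate 3 against 7.09 to 7.12. Pfkl was at 10.68 in control replicate 3 against 10.49 to 10.51. Pwp2 was at 8.22 in Dp5/Dp1 replicate 2 against 8.45 to 8.50. Without its outlying array the difference was -0.022 for Mcm3ap, -0.0035 for Lss, -0.046 for Col6a2, 0.029 for Pfkl and 0.099 for Pwp2, and none was called.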

How the results depend on the processing

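No homologue had an adjusted p under 0.05, or under 0.1, in any of the 20 alternative limma fits, where the lowest adjusted p was 0.508 (S100b without Dp5/Dp1 replicate 2). The sign of the difference held in every fit for 30 of 48. FCROS, which passed 5.06% of all genes (567 higher, 441 lower), passed 1 homologue higher (S100b) and 1 lower (Rrp1b). Homologues with a higher mean and an unadjusted p under 0.05 numbered 0 with the choroid plexus covariate or with an intensity trend and robust variance, 3 without Dp5/Dp1 replicates 2 and 5, and 0 to 2 when 1 array was left out. Those with a lower mean numbered 1 with centring on genes outside the intervals, with either covariate set, with the replicate block and without the dimmest 40%, and 0 to 3 when 1 array was left out. The share of all genes with an unadjusted p under 0.05 was counted in the main fit only. Whether these moves are particular to the homologues was therefore not tested. Homologues whose groups did not overlap numbered 0 after renewed quantile normalization, 2 without Dp5/Dp1 replicates 2 and 5, and 1 to 2 when 1 array was left out. Groups of fewer arrays overlap less easily. The share of all genes without overlap was counted in the main setting only, so these moves cannot be set beside it. The chromosome 10 median was 0.011 with choroid plexus and habenula covariates and -0.012 to 0.015 when 1 array was left out, and the chromosome 17 median -0.023 to 0.0022. Genes called higher numbered 26 with those covariates, 26 with the replicate block, 21 without Dp5/Dp1 replicates 2 and 5, and 29 to 38 when 1 array was left out. Genes called lower numbered 0 in the first 3 of these settings, 2 with an intensity trend and robust variance, and 0 to 2 when 1 array was left out. The adjusted p of Cbs was 0.198 with the replicate block. The causes were not tested. Replicate numbers did not pair the mice: correlations of same-numbered deviations ran from -0.35 to 0.29, and for 1 of the 5 numbers the best match was the same number. The number of arrays and, for 12 dim probe sets, the signal over background limit these results.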

Other observations

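The study counts more homologous genes on chromosome 10 than the 31 named here. The segments hold further genes by position that are not among the 48. On chromosome 10 these were 15 measured genes, 10 of them among the dimmest 40%, of which none was called and none had an unadjusted p under 0.05. Gatd3a, a mitochondrial glutamine amidotransferase-like protein, lay at 9.41 ± 0.078 in controls and 9.48 ± 0.13 in Dp5/Dp1, a difference of 0.071 ± 0.061. Cfap410, a ciliary protein, differed by -0.031 ± 0.034, and Fam207a by 0.032 ± 0.044. The genes of hair keratin-associated proteins in the same stretch had dim probe sets, with Krtap10-10 at 0.14 ± 0.080 and Krtap10-4 at -0.088 ± 0.055.

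Control replicate 1 gave the highest or the lowest value for 17 of the 48 homologues (35.4%), and Dp5/Dp1 replicate 1 for 15 (31.2%). Over all genes control replicate 1 did so for 22.3%, and Dp5/Dp1 replicate 1 did so most often of the 10 arrays. Dp5/Dp1 replicate 2 and control replicate 1 were each lowest for 9 homologues (18.8%). Over all genes they were lowest for 7.87% and 11.9%. No test was made on these counts.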
